A study of Homo sapiens with 24 samples.

Results

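Little is known of the function of 10 genes among the targets of hypoxia-inducible factor (HIF) that are shared by cancer cell lines: *ANKRD37*, *C4orf3*, *C8orf58*, *KIAA2013*, *ANKZF1*, *NARF*, *RSBN1*, *SLC35E1*, *ZNF654* and *FBXO42*. They were taken by symbol from the study's lists of shared HIF targets, bound by HIF and induced by hypoxia. *ANKRD37*, *C4orf3* and *C8orf58* came from the list shared by every cell line of the study and the other 7 from the list shared by all lines but 1. The study's lines also included HepG2 and RCC4 cells, which are not among the libraries used here, so the line missing for a gene may be either of those. All 10 were found among the 23106 gene symbols of the count files. The comparison of hypoxia with normoxia in the same libraries was part of how they were chosen, so the size of that change is given here as a description, with no test. Levels between cell lines were not used in the choice. Partner lists were set with earlier results of these data known, and *ZNF292*, *PLOD1* and *PDLIM2* are themselves shared targets of the study. The study picked genes close to HIF binding sites, so results for partners and neighbouring genes are not independent of the choice.

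RNA-seq counts covered 24 libraries of polyadenylated RNA from 4 cancer cell lines: T47D from breast, PC3 from prostate, A549 from lung and HCT-116 from colorectal cancer. For each, 3 libraries came from cells held at 21% oxygen (normoxia) and 3 from cells held at 0.5% oxygen (hypoxia) for 16 h. T47D cells grew in DMEM, A549 and PC3 cells in F12K and HCT-116 cells in McCoy's 5a medium, so the medium cannot be told apart from the line except between A549 and PC3 cells. The study also names alternative kits for RNA isolation and library preparation and several sequencers, without assigning them to lines. These may therefore differ between lines too. Nothing in the labels says that replicates came from separate cultures, so the p-values measure only the spread between these libraries, which may be technical.

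The libraries held 22698584 to 62850747 counts, at which 3 counts correspond to 0.0436 to 0.132 CPM (CPM, counts scaled to library size, with TMM factors set over the 24 libraries). Replicates correlated with r between 0.981 and 0.994 across genes, which are not independent replicates, and no 2 libraries held identical counts. Line markers followed the labels in part. T47D libraries had 534 to 952 CPM of the progesterone receptor gene *PGR*, and A549 libraries had 3052 to 3735 CPM of *AKR1B10* and 0 counts of *CDKN2A*. The colon gene *CDX2* stood at 10.2 to 23.1 CPM in HCT-116 libraries, where *VIL1* was at most 0.138 CPM, and the lung genes *NKX2-1* and *SFTPB* were at most 0.0804 CPM in A549 libraries. The prostate gene *KLK3* had 0 counts in every library. Of the 3 markers of other cell types, the leukocyte gene *PTPRC* did not exceed 0.301 CPM in any library, and the endothelial gene *PECAM1* reached 2.81 CPM in PC3 cells and at most 0.0766 CPM in the other lines. The third, the collagen gene *COL1A1*, stood at 9.99 to 54.9 CPM over all libraries.

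In normoxia, prolyl hydroxylases mark the HIF-α subunits for degradation through the VHL ubiquitin ligase. In hypoxia the subunits persist, pair with HIF-1β and bind short DNA motifs called hypoxia response elements, whose core reads ACGTG or GCGTG. The best known genes under this control serve glycolysis, angiogenesis and the oxygen-sensing loop itself. The genes described here are less familiar, and several have been linked to other processes: *C4orf3* encodes a small membrane protein that restrains the SERCA calcium pumps of the endoplasmic reticulum, *ANKZF1* a factor that frees unfinished protein chains from stalled ribosomes, *NARF* a nuclear protein that recognizes farnesylated prelamin A, *RSBN1* a Jumonji-type protein linked to removal of methyl groups from lysine 20 of histone H4, and *FBXO42* an F-box protein that gives an SCF ubiquitin ligase its substrates. *SLC35E1* belongs to a family of nucleotide-sugar transporters, *ZNF654* to the zinc finger proteins and *ANKRD37* to the ankyrin repeat proteins. *KIAA2013* is predicted to be a membrane protein, and *C8orf58* has no assigned role.

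Promoter windows from RefSeq (GRCh38.p14), each running from 250 bases before to 50 bases after a start site, were found for 6 of the genes (8 windows, 3 of them for *NARF*) and were placed on GRCh37 by exact match. *C4orf3* was matched by its gene ID under its newer symbol *ARLN*. *C8orf58*, *ANKZF1*, *RSBN1* and *ZNF654* had no window in that table. The letters ACGTG stood on either strand in windows of *ANKRD37*, *NARF*, *SLC35E1* and *FBXO42* and in neither of the windows of *C4orf3* and *KIAA2013*. Stretches upstream of the RefSeq start site are printed below on the strand of the gene to show where these letters lie, with ACGTG or GCGTG on either strand in capitals. They come from chr4:186317815-186317894 (*ANKRD37*, + strand), chr17:80415954-80416073 (*NARF*, + strand), chr19:16683322-16683451 (*SLC35E1*, - strand), chr1:16678976-16679055 (*FBXO42*, - strand) and, as a stretch without these letters, chr4:120221801-120221920 (*C4orf3*, - strand).
ANKRD37: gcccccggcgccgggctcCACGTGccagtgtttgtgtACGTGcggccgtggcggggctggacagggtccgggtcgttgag
NARF: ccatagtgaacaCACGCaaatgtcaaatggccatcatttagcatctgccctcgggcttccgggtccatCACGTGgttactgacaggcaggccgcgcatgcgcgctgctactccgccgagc
SLC35E1: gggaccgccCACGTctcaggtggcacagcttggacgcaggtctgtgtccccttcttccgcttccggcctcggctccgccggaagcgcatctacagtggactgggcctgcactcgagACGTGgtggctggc
FBXO42: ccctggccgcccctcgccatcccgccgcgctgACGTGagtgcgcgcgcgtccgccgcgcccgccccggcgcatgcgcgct
C4orf3: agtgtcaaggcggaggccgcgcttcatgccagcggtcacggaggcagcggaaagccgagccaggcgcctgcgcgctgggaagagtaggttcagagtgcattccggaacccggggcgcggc

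The *ANKRD37* stretch holds 2 separate runs, at -162 and -143 from the start site, of which the first reads the same on both strands and therefore counts as an overlapping pair. The *NARF* stretch has such a palindrome at -52 and a GCGTG on the opposite strand at -108, and its window has a further ACGTG just past the start site. *SLC35E1* has one on each strand, at -216 and -109, and *FBXO42* has a single one at -48. Among all 35116 RefSeq promoter windows of this length, 21.4% hold ACGTG and 48.4% hold ACGTG or GCGTG, and among the 15531 windows of genes in the count files, taking 1 window per gene, the shares are 23.8% and 56.1%. The 8 windows of the genes described here had 50.3% to 74.0% G and C, with a median of 70.7% in which each *NARF* window counts. The median was 62.7% for genes in the count files, with 1 window per gene, so the 2 medians were not taken alike. HIF binding near the gene was part of the selection, so these counts are a description. A match of letters is not a binding site, and its absence says only that the letters are not in this window. Positions here are counted from the RefSeq start site. The printed *ANKRD37* and *C4orf3* stretches lie wholly inside the gene spans of the GENCODE annotation, which are given further on. Distances to neighbouring genes use GENCODE starts and cannot be combined with these positions.

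Counting was scaled within each line for the fold changes (edgeR, TMM) and over all 24 libraries for the CPM levels, so a ratio of 2 printed levels can differ slightly from the fitted fold change. Levels of all 10 genes in the 3 hypoxic libraries lay above those in the 3 normoxic libraries in all 4 lines, without overlap in any of the 40 combinations of gene and line. For comparison, hypoxic libraries lay above normoxic ones with no overlap for 23.6% of tested genes in A549, 32.8% in HCT-116, 28.4% in PC3 and 19.0% in T47D cells. A gene was called where its fold change exceeded 1.2 and its adjusted p was below 0.05, and 39 of the 40 combinations were called up (10 in A549, HCT-116 and PC3 cells and 9 in T47D cells), where 17.6%, 23.3%, 16.6% and 6.55% of all genes tested were called up in these lines. Since the choice of the genes used these calls, nothing is read from the counts.

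**Figure D1:**
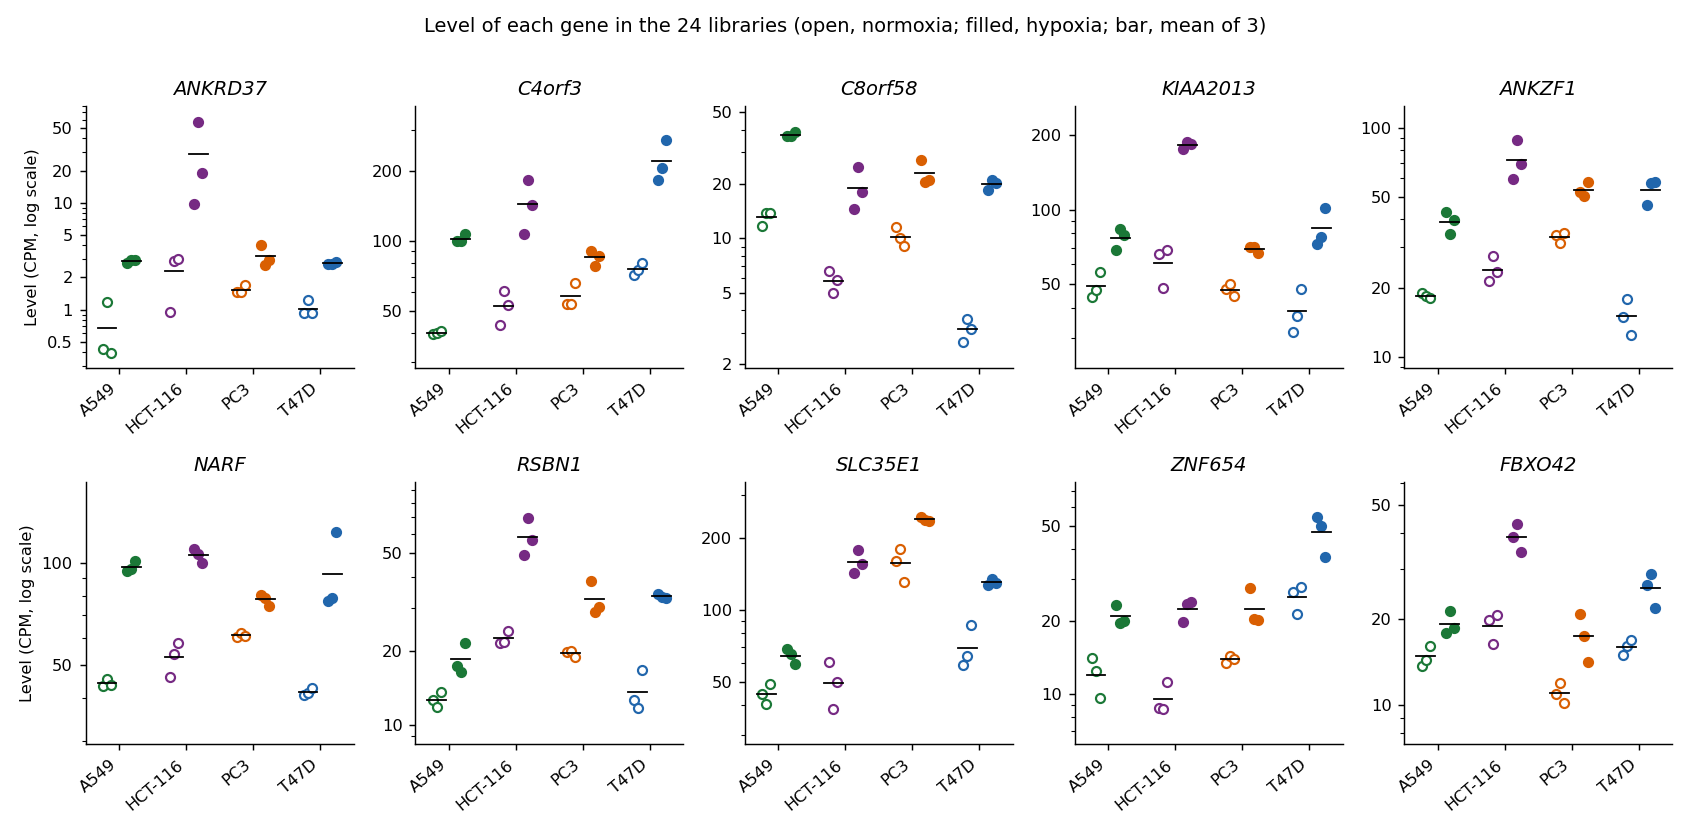
Level of each gene in every library, in CPM on a log scale, with open circles for normoxia, filled circles for hypoxia and a bar at the mean of the 3 libraries. In each panel and each line the filled circles lie above the open ones, *ANKRD37* spreads from 9.72 to 57.5 CPM over the hypoxic HCT-116 libraries, and *SLC35E1* is highest in PC3 cells in both states.

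*ANKRD37* lies on chromosome 4 (186317175 to 186321782 of GRCh37, + strand) and encodes a small protein made largely of ankyrin repeats. In normoxia its mean level per transcript length was the lowest of the 10 genes in A549, PC3 and T47D cells, and in HCT-116 cells *ZNF654* lay lower (1.47 against 1.58 CPM per kb). A549 libraries held 0.433, 1.18 and 0.397 CPM in normoxia and 2.71, 2.92 and 2.89 CPM in hypoxia. HCT-116 libraries held 0.953, 2.88 and 3.0 CPM in normoxia and 9.72, 57.5 and 18.9 CPM in hypoxia. The hypoxic HCT-116 libraries differed widely among themselves, with a coefficient of variation of 88.4%, the largest of the 80 combinations of gene, line and state (median 11.2%). In PC3 cells the levels were 1.45, 1.45 and 1.70 CPM in normoxia and 4.01, 2.59 and 2.91 CPM in hypoxia, and in T47D cells they were 0.928, 1.22 and 0.924 CPM against 2.69, 2.69 and 2.78 CPM. Its log2 fold change was 3.53 (SE 0.56) in HCT-116, 2.07 (SE 0.39) in A549, 1.32 (SE 0.34) in T47D and 0.99 (SE 0.24) in PC3 cells. The HCT-116 value was 2.56 without hypoxia replicate 2 and 4.0 without hypoxia replicate 1. As few as 22 counts lay behind a normoxic A549 value, and 3003 counts behind the highest HCT-116 value.

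The gene shares 909 exonic bases with *UFSP2*, a gene on the opposite strand that encodes a protease for the ubiquitin-like modifier UFM1. The strand setting of the counting is not given in the sources used here. If strand was ignored, fragments within the shared bases would be dropped wherever the counting annotation holds the same overlap. The *ANKRD37* level might then be too low, and it is uncertain to that extent. *UFSP2* was between 15.0 and 18.9 CPM in normoxia (means of 3 libraries in the 4 lines) and was not called in any line. Its log2 fold change lay between −0.12 (PC3) and 0.46 (HCT-116, SE 0.19, adjusted p = 0.0549 by edgeR), and a replicate block brought the HCT-116 value past the threshold (adjusted p = 0.0401 by edgeR).

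Of the membrane protein genes, *C4orf3* (chromosome 4, 120217574 to 120225600, - strand) had mean levels of 40 ± 0.555 CPM in A549, 52.3 ± 8.73 CPM in HCT-116, 57.7 ± 7.09 CPM in PC3 and 75.5 ± 4.35 CPM in T47D cells in normoxia (SD, n = 3 libraries each). In hypoxia, A549 libraries held 99.6, 99.4 and 107 CPM and T47D libraries 183, 206 and 272 CPM. HCT-116 libraries held 107, 182 and 142 CPM and PC3 libraries 89.9, 78.0 and 86.3 CPM. The change was similar in A549, HCT-116 and T47D cells, with log2 fold changes of 1.35 (SE 0.10), 1.33 (SE 0.23) and 1.47 (SE 0.22), and smaller in PC3 cells (0.50, SE 0.12). The lines were thus in a different order in hypoxia: PC3 cells, second highest in normoxia, had the lowest mean level in hypoxia. The smallest *C4orf3* count in any library was 1294.

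*KIAA2013* (chromosome 1, 11979648 to 11986485, - strand) ranged from 31.8 to 68.3 CPM over the normoxic libraries. Hypoxic HCT-116 libraries held 176, 188 and 184 CPM, while the hypoxic libraries of the other 3 lines lay between 66.4 and 101 CPM. No library of another line reached the hypoxic HCT-116 range. Its log2 fold change was 1.47 (SE 0.20) in HCT-116, 1.04 (SE 0.21) in T47D, 0.64 (SE 0.12) in A549 and 0.49 (SE 0.08) in PC3 cells.

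*SLC35E1* (chromosome 19, 16660642 to 16683226, - strand) was highest in PC3 cells, with 159, 179 and 131 CPM in normoxia and 243, 237 and 234 CPM in hypoxia. Normoxic levels in the other lines lay between 38.5 CPM (HCT-116) and 86.2 CPM (T47D). The lowest normoxic PC3 library was therefore above the highest normoxic library of any other line, and also above the 127 to 135 CPM of hypoxic T47D cells in 2 of 3 libraries. Its log2 fold change was 1.55 (SE 0.21) in HCT-116, where 60.6, 38.5 and 49.9 CPM in normoxia compared with 142, 177 and 155 CPM in hypoxia, and 0.52 to 0.83 in the other lines. Readthrough transcripts and lncRNAs overlap *SLC35E1* in the annotation, including an antisense lncRNA that shares 432 exonic bases. None of them was matched to a symbol of the count files. If strand was ignored, fragments of the antisense lncRNA might have been counted for *SLC35E1*.

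Of the genes linked to protein quality control, *ANKZF1* (chromosome 2, 220094505 to 220101401, + strand) had the largest change in T47D cells, from 14.9, 17.8 and 12.5 CPM in normoxia to 45.8, 57.5 and 57.6 CPM in hypoxia (log2 fold change 1.75, SE 0.21). In HCT-116 cells it went from 24 ± 3.04 to 72.5 ± 14.8 CPM, in A549 cells from 18.5 ± 0.479 to 38.9 ± 4.38 CPM and in PC3 cells from 33.4 ± 1.65 to 53.6 ± 4.05 CPM (SD, n = 3 each). The log2 fold changes in these lines were 1.47 (SE 0.20), 1.07 (SE 0.12) and 0.63 (SE 0.10). T47D cells thus had the lowest mean *ANKZF1* level in normoxia and the same mean level as PC3 cells in hypoxia. The gene overlaps *GLB1L* on the opposite strand by 82 exonic bases.

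*FBXO42* (chromosome 1, 16573335 to 16678975, - strand) had the smallest changes on average, with a mean log2 fold change of 0.63 over the 4 lines. Its level was 13.7, 14.4 and 16.1 CPM in normoxic and 17.8, 21.4 and 18.6 CPM in hypoxic A549 cells (log2 fold change 0.38, SE 0.13). In HCT-116 cells it was 19.8, 16.4 and 20.6 CPM against 38.6, 43.0 and 34.3 CPM (0.91, SE 0.18). In PC3 cells it was 10.9, 11.9 and 10.2 CPM against 20.9, 17.4 and 14.2 CPM (0.62, SE 0.15). The states lay closest together in A549 cells, where the highest normoxic library was at 16.1 CPM and the lowest hypoxic one at 17.8 CPM. The A549 call was lost with 5 of 13 alternatives, namely library totals alone, a fit of all 24 libraries, and without hypoxia replicate 2 or normoxia replicates 1 or 2, with log2 fold changes of 0.26 to 0.44 over all 13. The PC3 call was lost without hypoxia replicate 1. *FBXO42* in T47D cells, with 15.0, 16.1 and 16.9 CPM against 26.4, 28.8 and 21.9 CPM and a log2 fold change of 0.60 (SE 0.19, fold change 1.51), was the single combination that missed the adjusted p threshold. The T47D replicate numbers appeared to pair the libraries, and under a replicate block the gene was called there too (log2 fold change 0.59). It was also called there with DESeq2, in a fit of all 24 libraries and without hypoxia replicate 3. At the other limit, *NARF* in PC3 cells, with a fold change of 1.23, was the called combination closest to the fold change of 1.2.

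Of the genes for nuclear proteins, *NARF* (chromosome 17, 80416056 to 80448413, + strand) stood at 43.4, 45.5 and 43.7 CPM in normoxic and 94.3, 95.5 and 101 CPM in hypoxic A549 cells, the line with its largest log2 fold change (1.13, SE 0.10). T47D libraries held 41.0, 41.5 and 42.9 CPM in normoxia and 77.2, 78.7 and 123 CPM in hypoxia. In the latter, replicate 3 alone lay above 100 CPM. HCT-116 cells went from 52.7 ± 5.97 to 105 ± 4.99 CPM (log2 fold change 0.88, SE 0.18) and PC3 cells from 61.2 ± 0.905 to 78.0 ± 2.93 CPM (0.30, SE 0.08; SD, n = 3 each). The call in PC3 cells was lost when libraries were scaled by their totals alone, in a fit of all 24 libraries and in 4 of 6 fits on 5 libraries, without hypoxia replicates 1, 2 or 3 or normoxia replicate 1, with log2 fold changes of 0.26 to 0.35 over all alternatives.

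*RSBN1* (chromosome 1, 114304454 to 114355098, - strand) went from 21.5, 21.8 and 24.1 CPM in normoxia to 49.0, 69.3 and 56.7 CPM in hypoxia in HCT-116 cells and from 12.7, 11.7 and 16.8 CPM to 34.2, 33.2 and 32.7 CPM in T47D cells. The log2 fold changes were 1.25 (SE 0.19) and 1.2 (SE 0.20). They were 0.67 (SE 0.13) in PC3 and 0.54 (SE 0.14) in A549 cells. A549 libraries, with 16.5 to 21.6 CPM, had the lowest *RSBN1* levels in hypoxia, below the normoxic HCT-116 level in 2 of 3 libraries.

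*ZNF654* (chromosome 3, 88108405 to 88193810, + strand) had the most even change, between 0.65 (PC3, SE 0.14) and 1.13 (HCT-116, SE 0.20) on the log2 scale. T47D libraries held 26.6, 21.5 and 27.8 CPM in normoxia, above the 8.60 to 14.3 CPM of the other lines. In hypoxia they held 54.2, 50 and 37.1 CPM against 19.6 to 27.4 CPM elsewhere. The whole gene lies opposite *CGGBP1*, which encodes a protein that binds CGG repeats, and shares 79 exonic bases with it. *CGGBP1* was not called in any line, with log2 fold changes from −0.45 (HCT-116, SE 0.18, adjusted p = 0.0513 by edgeR, or 0.0430 with the replicate block) to 0.15 (PC3, SE 0.10).

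*C8orf58* (chromosome 8, 22457112 to 22461663, + strand) had its largest change in T47D cells, from 2.67, 3.59 and 3.15 CPM in normoxia to 18.5, 21.0 and 20.3 CPM in hypoxia (log2 fold change 2.58, SE 0.22). In A549 cells it went from 11.7, 13.9 and 13.8 CPM to 36.9, 37.1 and 38.7 CPM (1.51, SE 0.12). T47D cells thus started from the lowest level of the 4 lines and reached the range of HCT-116 cells (14.5, 24.9 and 18.0 CPM in hypoxia). The log2 fold change was 1.59 (SE 0.24) in HCT-116 and 1.12 (SE 0.15) in PC3 cells. A readthrough transcript on the same strand shares 730 exonic bases with the gene in the annotation.

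**Figure D2:**
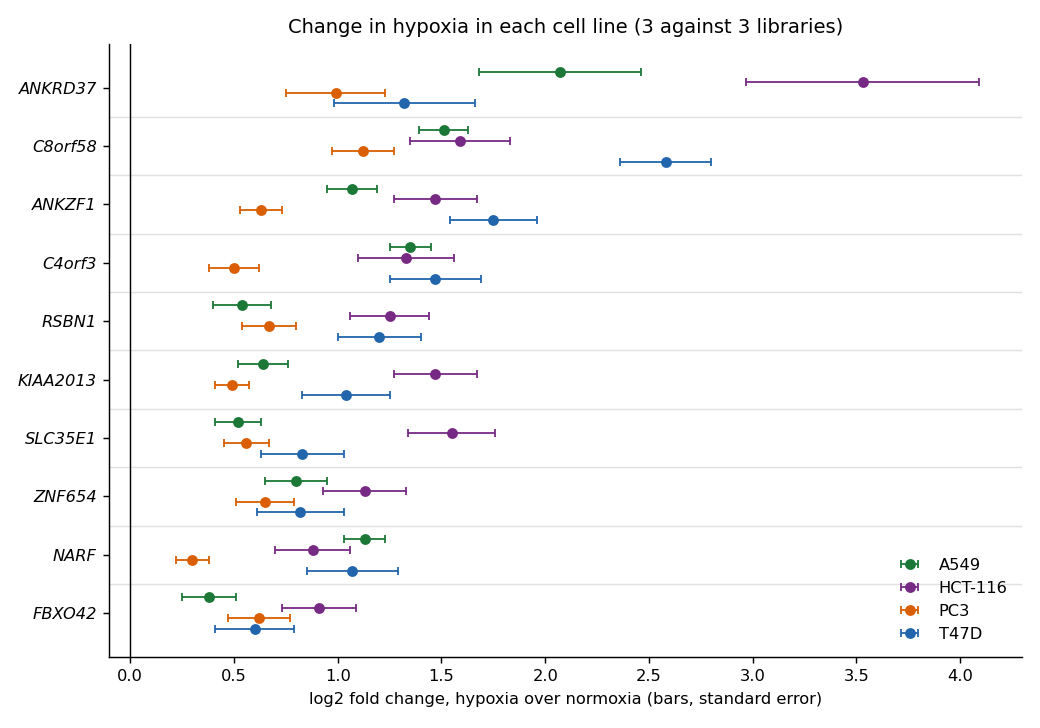
log2 fold change of each gene, hypoxia over normoxia, in each line, with bars for the standard error of the fit (3 against 3 libraries) and genes ordered by their mean over the lines. HCT-116 cells have the largest value for 6 genes and PC3 cells the smallest for 7, and *ANKRD37* in HCT-116 (3.53) and *C8orf58* in T47D cells (2.58) stand farthest to the right.

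Over the 10 genes, the median log2 fold change was 1.4 in HCT-116, 1.14 in T47D, 0.94 in A549 and 0.62 in PC3 cells, beside medians of −0.03 to −0.01 over all genes tested. The other 45 genes of the list shared by every cell line had medians of 2.25, 1.86, 1.58 and 0.76 in the same order. HCT-116 cells had the largest change for 6 genes, T47D cells for 3 and A549 cells for 1 (*NARF*), while PC3 cells had the smallest for 7 and A549 cells for 3 (*RSBN1*, *SLC35E1* and *FBXO42*). In T47D cells the calls of *ANKRD37*, *SLC35E1* and *ZNF654* were lost without hypoxia or normoxia replicates 1 or 2, and those of *KIAA2013* and *NARF* without normoxia replicates 1 or 2. In PC3 cells the call of *ANKRD37* was lost without hypoxia replicate 1 and in the fit of all 24 libraries, and that of *C4orf3* without normoxia replicate 1. The differences between lines in the response were not tested, since the response of each line entered the choice of the genes. More than 2-fold higher levels were fitted in 21 of the 40 combinations, 8 in HCT-116, 7 in T47D, 5 in A549 and 1 in PC3 cells (*C8orf58*), whereas a log2 fold change over 1 was found for 10.1%, 6.29%, 4.84% and 3.27% of all genes tested in these lines.

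Some libraries stood at an end of their group for most of the genes. Hypoxia replicate 2 of HCT-116 was the highest of its group for 8 of the 10 genes and replicate 1 the lowest for 8. Hypoxia replicate 1 of PC3 was the highest for 9. Replicate 1 of T47D was the lowest of its group for 6 genes in normoxia and for 7 in hypoxia, and T47D normoxia replicate 3 was the highest for 7. T47D normoxia replicates 1 and 2 also decided calls: without either of them, 4 of the 10 genes were called up in T47D cells in place of 9. Calls up over all genes in T47D cells fell as well, from 922 to 180 without replicate 1 and to 322 without replicate 2.

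The level of each gene was then compared between the 4 lines within each oxygen state, a comparison that did not enter the choice of the genes. In normoxia, all 10 genes differed between lines (edgeR's quasi-likelihood test over the 4 lines, 12 libraries, Benjamini-Hochberg adjustment), as did 93.5% of the 15616 genes tested. In hypoxia, 9 differed, as did 93.1% of 15514 genes. *NARF* did not pass the test in hypoxia (adjusted p = 0.106). In pairs of lines, 38 of 60 comparisons passed the test in normoxia and 36 of 60 in hypoxia, shares close to those of all genes (65.6% and 66.4%).

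For *SLC35E1*, PC3 cells had a higher level than each other line in both states. In normoxia they stood at 156 ± 23.9 CPM, followed by T47D (69.6 ± 14.5), HCT-116 (49.7 ± 11) and A549 cells (44.7 ± 4.31; SD, n = 3). The difference between PC3 and T47D cells was 1.17 on the log2 scale (SE 0.20, adjusted p = 6.40e-05 by edgeR), and HCT-116 and A549 cells were not called different (adjusted p = 0.509). In hypoxia the order was PC3 (238 ± 4.59), HCT-116 (158 ± 17.5), T47D (131 ± 4.3) and A549 cells (64.5 ± 4.48). The HCT-116 and T47D levels did not overlap but missed the test's threshold (log2 difference 0.23, SE 0.11, adjusted p = 0.0741 by edgeR).

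*ZNF654* was highest in T47D cells, with 25.3 ± 3.37 CPM in normoxia against 13.9 ± 0.475 CPM in PC3 cells, the next line (PC3 minus T47D −0.86 on the log2 scale, SE 0.19, adjusted p = 6.34e-04 by edgeR). PC3 and A549 cells, and A549 and HCT-116 cells, were not called different. In hypoxia T47D cells, at 47.1 ± 8.89 CPM, differed from each other line (adjusted p at most 6.57e-05 by edgeR), and no pair among PC3, HCT-116 and A549 cells, at 21.0 to 22.6 CPM, was called different.

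*ANKRD37* ranged in normoxia from 2.28 ± 1.15 CPM in HCT-116 to 0.671 ± 0.443 CPM in A549 cells (adjusted p = 0.0132 by edgeR for the test over the 4 lines), with no neighbouring lines in this order called different. Without HCT-116 normoxia replicate 3 the adjusted p of that test by edgeR was 0.0560. In hypoxia HCT-116 cells stood apart at 28.7 ± 25.4 CPM. They differed from the next line, PC3 at 3.17 ± 0.746 CPM, by 3.14 on the log2 scale (SE 0.47, adjusted p = 4.76e-05 by edgeR). The other 3 lines, at 2.72 to 3.17 CPM, were not called different from each other.

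*C8orf58* means lay closer together in hypoxia than in normoxia, a difference in range that was not tested. In normoxia A549 (13.1 ± 1.26 CPM) and PC3 cells (10.2 ± 1.2 CPM) were not called different, and both were above HCT-116 (5.81 ± 0.809 CPM) and T47D cells (3.14 ± 0.459 CPM), which also differed from each other (log2 difference 0.89, SE 0.20, adjusted p = 0.001 by edgeR). In hypoxia A549 cells, at 37.6 ± 1.0 CPM, were above all other lines, and PC3, T47D and HCT-116 cells, at 23, 19.9 and 19.1 CPM, were not called different from each other. The highest mean was 4.19 times the lowest in normoxia and 1.97 times in hypoxia.

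For *KIAA2013* in normoxia, only HCT-116 and T47D cells were called different among the 6 pairs (60.8 ± 11.2 against 38.8 ± 7.99 CPM, log2 difference 0.65, SE 0.18, adjusted p = 0.00409 by edgeR), and the test over the 4 lines (adjusted p = 0.0196) was lost with library totals alone (0.161) and in 4 of 12 fits on 11 libraries, without HCT-116 normoxia replicate 1 (0.0619) or 3 (0.0750) or T47D normoxia replicate 1 (0.0700) or 2 (0.0558). In hypoxia HCT-116 cells, at 183 ± 6.28 CPM, exceeded T47D cells, the next line, by 1.08 on the log2 scale (SE 0.14, adjusted p = 8.40e-06). *FBXO42* was likewise highest in hypoxic HCT-116 cells (38.7 ± 4.35 CPM), above T47D cells at 25.7 ± 3.47 CPM (log2 difference 0.55, SE 0.16, adjusted p = 0.00812 by edgeR). PC3 cells had its lowest level in both states, and in hypoxia they and A549 cells were not called different.

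*C4orf3* was highest in T47D cells in both states, with PC3 minus T47D at −0.39 on the log2 scale in normoxia (SE 0.15, adjusted p = 0.0330 by edgeR) and HCT-116 minus T47D at −0.66 in hypoxia (SE 0.18, adjusted p = 0.00477). HCT-116, A549 and PC3 cells followed in hypoxia, and neighbours in this order were not called different. *RSBN1* was highest in HCT-116 cells, which were not called different from PC3 cells in normoxia (adjusted p = 0.313) and exceeded T47D cells, the next line, in hypoxia by 0.76 (SE 0.16, adjusted p = 7.67e-04 by edgeR). A549 cells had the lowest hypoxic *RSBN1* level, 18.5 ± 2.73 CPM, and differed from each other line. For *ANKZF1*, PC3 cells were highest in normoxia (33.4 CPM) and HCT-116 cells in hypoxia (72.5 CPM), and T47D and PC3 cells had equal means of 53.6 CPM in hypoxia. A549 and T47D cells, with its lowest normoxic means of 18.5 and 15.1 CPM, were not called different there (adjusted p = 0.117 by edgeR).

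*NARF* had the narrowest range of levels. Its highest mean was 1.46 times its lowest in normoxia (PC3 and T47D cells, log2 difference 0.55, SE 0.13, adjusted p = 0.00161 by edgeR) and 1.35 times in hypoxia, with HCT-116 and PC3 cells as the single pair called different. The order was reversed between the states for PC3 cells, which had the highest mean in normoxia and the lowest in hypoxia. The missing call over the 4 lines in hypoxia depended on T47D hypoxia replicate 3, without which the adjusted p was 5.70e-04, and on the fit, since a fit of all 24 libraries gave 0.0438.

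Levels of different genes can be set beside each other only per length. Divided by the length of the longest annotated transcript, the mean level per kb in normoxia was low for *ANKRD37* (0.464 to 1.58 CPM per kb over the lines), for *RSBN1*, *ZNF654* and *FBXO42* (1.47 to 3.92 CPM per kb) and for *C8orf58* in T47D cells (1.53 CPM per kb), and highest for *SLC35E1* in PC3 cells (30.5 CPM per kb) and *C4orf3* in T47D cells (25.5 CPM per kb). In hypoxia the range ran from 1.88 CPM per kb for *ANKRD37* in T47D cells to 74.3 CPM per kb for *C4orf3* in the same line. *ANKRD37* in hypoxic HCT-116 cells reached 19.9 CPM per kb.

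After the mean of each line was subtracted from the log2 CPM values, the 10 genes varied together over the 24 libraries. Pearson's r over the 45 pairs lay between 0.781 (*NARF* and *FBXO42*) and 0.968 (*C4orf3* and *ANKZF1*), with a median of 0.886. These values are a description: the libraries share the change of oxygen that chose the genes, as well as library depth and batch. Among 11724 other genes, those with the most similar pattern included well-known HIF targets. *NDRG1* was among the 2 closest genes to *C8orf58* (r = 0.985) and *C4orf3* (0.969), *ADM*, the gene of the vasodilator peptide adrenomedullin, to *ANKRD37* (0.946), *BNIP3*, which encodes a mitophagy receptor, to *ANKZF1* (0.977) and *EGLN1*, which encodes the HIF prolyl hydroxylase PHD2, to *RSBN1* (0.977). The other closest genes were *SEMA4B* for *ANKRD37* (0.935), *VKORC1* for *C4orf3* (0.969), *ZNF395* for *C8orf58* (0.979), *RIMKLA* for *ANKZF1* (0.97) and *PIM2* for *RSBN1* (0.972). For *KIAA2013* they were *BCKDK* (0.985) and *TWF2* (0.983), for *NARF* *TMEM45A* (0.964) and *CKB* (0.963), for *SLC35E1* *SH3GL1* (0.989) and *FAM129B* (0.988), for *ZNF654* *ESYT2* (0.961) and *FZD7* (0.949), and for *FBXO42* *NUAK1* (0.968) and *RAB43* (0.96). Of these closest genes, *NDRG1*, *ADM*, *EGLN1*, *SEMA4B*, *ZNF395* and *ESYT2* are on the study's list shared by every cell line. The study also names *BNIP3* among its shared targets outside that list. Their hypoxic change in these libraries was part of that choice, so their likeness is not independent of it.

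Genes known to act with the encoded proteins, or related to them, were examined next. Of 40 such genes, in 151 tests over the 4 lines, 23 calls were up (15.2%) and 20 down (13.2%), against 15.9% and 16.7% of all genes tested in these lines. The relatives and partners as a whole were thus called about as often as other genes.

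For *C4orf3*, the SERCA pump gene *ATP2A2* rose in A549 cells (900 ± 130 to 1224 ± 73.7 CPM, log2 fold change 0.44, SE 0.12, adjusted p = 0.0169 by edgeR) and HCT-116 cells (log2 fold change 0.85, SE 0.24, adjusted p = 0.0113). It was not called in PC3 (0.23, SE 0.12) or T47D cells (0.34, SE 0.24). The A549 call was lost without hypoxia replicate 2 or normoxia replicate 2. *ATP2A3*, named with *ABCE1*, *LMNA* and the iron-sulfur and SCF partners below after their values were seen, was also called up in A549 (0.97, SE 0.15, adjusted p = 6.21e-04) and HCT-116 cells (1.02, SE 0.20, adjusted p = 0.00110). Of the 6 genes of pumps and inhibitory micropeptides in the files, 3 to 5 were tested in a line, 4 of 15 tests were called up and 1 down. *PLN*, the gene of phospholamban, was not tested in any line.

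For *ANKZF1*, the 12 genes of ribosome-associated quality control gave 4 calls up and 6 down in 48 tests, and none of the 12 was called in the same direction in 3 or more lines. Their median log2 fold change was between −0.00 (T47D) and 0.28 (HCT-116). *ABCE1*, which encodes a ribosome recycling factor, fell in A549 (−0.57, SE 0.11, adjusted p = 0.00219 by edgeR) and PC3 cells (−0.45, SE 0.09, adjusted p = 0.00589), the single gene of the list with 2 calls.

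For *NARF*, the genes of prelamin A processing went both ways, with 6 calls up and 5 down in 24 tests, and so did the subunits of the farnesyltransferase. *FNTB*, its β subunit, rose in A549 (log2 fold change 0.50, SE 0.11, adjusted p = 0.00585 by edgeR), HCT-116 (1.01, SE 0.19, adjusted p = 9.67e-04) and PC3 cells (0.44, SE 0.09, adjusted p = 0.00733) and was not called in T47D cells (0.51, SE 0.20, adjusted p = 0.107). *FNTA*, its α subunit, was called down in A549 (−0.40, SE 0.13, adjusted p = 0.0268 by edgeR) and HCT-116 cells (−0.78, SE 0.26, adjusted p = 0.0213). The A549 call of *FNTA* was lost without hypoxia or normoxia replicates 1 or 2, and the HCT-116 call without hypoxia replicates 1 or 3 or normoxia replicate 2. *ZMPSTE24*, the protease that cleaves prelamin A, fell in A549 (−0.45, SE 0.12, adjusted p = 0.0112), HCT-116 (−1.74, SE 0.26, adjusted p = 2.13e-04) and T47D cells (−0.83, SE 0.25, adjusted p = 0.0441) and was not called in PC3 cells (−0.32, SE 0.12). The T47D call of *ZMPSTE24* was lost in 5 of 6 fits on 5 libraries (all but the fit without hypoxia replicate 3), and the A549 call without hypoxia replicate 2. *FNTA* and *LMNA* were named after their values were seen. *LMNA*, which encodes lamin A itself, was called up in A549 (0.60, SE 0.12, adjusted p = 0.00285) and HCT-116 cells (1.55, SE 0.23, adjusted p = 2.03e-04). *NARFL*, the closest relative of *NARF* and part of the cytosolic iron-sulfur assembly machinery, was not called in any line, with log2 fold changes of −0.29 (A549, SE 0.11), −0.45 (HCT-116, SE 0.22), 0.08 (PC3, SE 0.10) and −0.07 (T47D, SE 0.23). Its partners *CIAO1* and *FAM96B* were each called down in A549 and HCT-116 cells and *MMS19* was called up in the same lines. The A549 calls of *CIAO1* and *FAM96B* were lost without hypoxia or normoxia replicates 1 or 2, that of *MMS19* without normoxia replicate 1, and the HCT-116 call of *CIAO1* without hypoxia replicates 2 or 3 or normoxia replicate 3. The *FAM96B* call in A549 cells was also lost with the replicate block (adjusted p = 0.0645). *MMS19* in T47D cells was called up with that block (log2 fold change 0.56, adjusted p = 0.0452, against 0.0631 without it).

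For *FBXO42*, which encodes an F-box protein, the SCF core genes *SKP1*, *CUL1* and *RBX1*, named after their values were seen, were each called down in 1 line. The log2 fold changes were those of *SKP1* (−1.55, SE 0.26, adjusted p = 4.82e-04 by edgeR) and *RBX1* (−1.78, SE 0.29, adjusted p = 3.30e-04) in HCT-116 cells, and *CUL1* (−0.46, SE 0.11, adjusted p = 0.00617) in A549 cells.

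For *RSBN1*, its paralog *RSBN1L* was not called in any line, with log2 fold changes between −0.21 (HCT-116, SE 0.18) and 0.10 (PC3, SE 0.09). Of the 6 genes linked to methylation of histone H4 lysine 20, 2 tests of 24 were called up and 1 down. For *ZNF654*, the related gene *ZNF292* was higher in hypoxia in A549 (log2 fold change 1.02, SE 0.13), HCT-116 (1.03, SE 0.20) and T47D cells (1.06, SE 0.26) and not called in PC3 cells (0.14, SE 0.10). *ZNF292* is itself one of the study's shared HIF targets, chosen in part on these libraries, so its calls are not independent evidence. *RLF*, the other relative, was not called in any line (0.22 to 0.58).

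**Figure D3:**
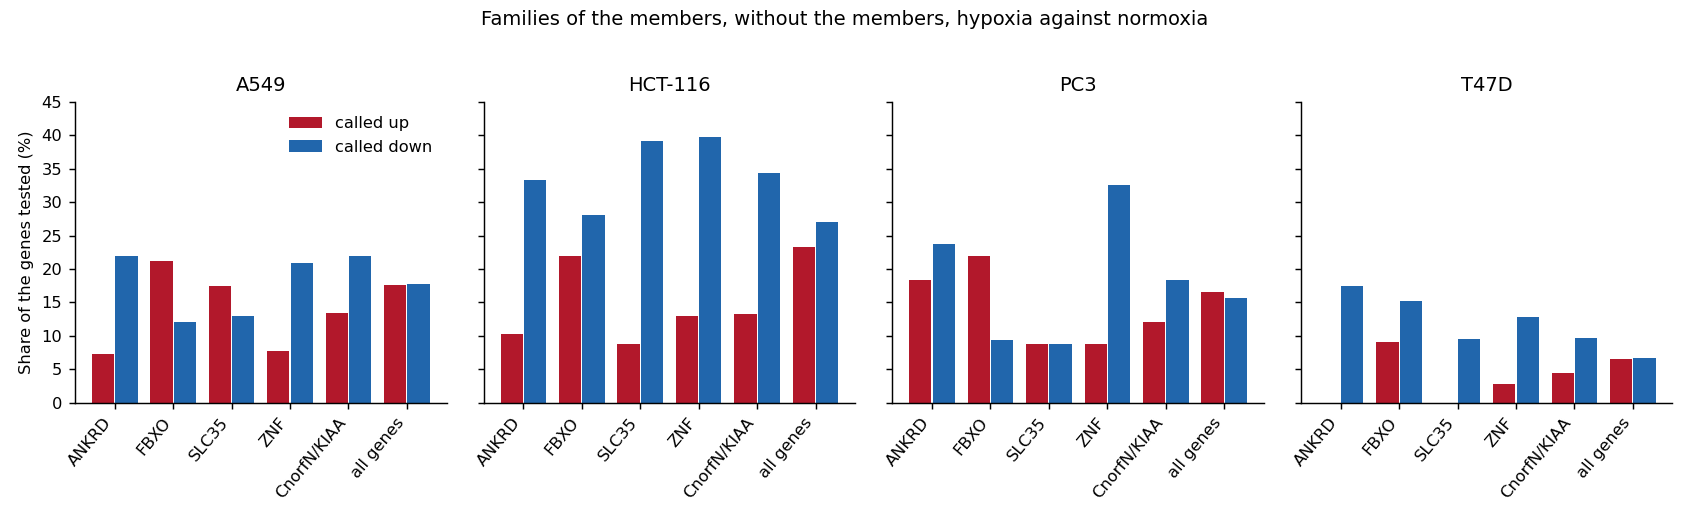
Share of the genes tested that were called up (red) or down (blue) in hypoxia in each line, for families defined by symbol without the genes described here, and for all genes tested. In HCT-116 cells 39.7% of ZNF genes and 34.3% of genes with CnorfN or KIAA symbols are called down, against 27.0% of all genes.

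The families to which the genes belong by name are given beside the share of all genes tested, 15.9% called up and 16.7% down over the 4 lines. No difference from that share was tested. Of 54 other ankyrin repeat (ANKRD) genes, in 158 tests, 14 were called up (8.86%) and 38 down (24.1%), and 3 of the 35 genes tested in all 4 lines were called down in each, the largest being *ANKRD36* and *ANKRD49* with mean log2 fold changes of −1.38 and −1.16 (adjusted p at most 0.0408 and 0.0315 by edgeR). Of 520 ZNF genes, 132 of 1696 tests were called up (7.78%) and 437 down (25.8%). In all 4 lines, 4 ZNF genes were called up and 22 down. *ZNF395* had the largest mean increase (1.79) but is one of the study's own shared targets, and *ZNF684* the largest mean decrease (−1.52, adjusted p at most 0.0316).

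SLC35 genes gave 8 calls up (8.89%) and 16 down (17.8%) in 90 tests. The single one called in the same direction in all 4 lines was *SLC35A1*, which encodes the transporter of CMP-sialic acid with a mean log2 fold change of −0.97 (−1.87 in HCT-116, SE 0.29, and −0.48 in A549 cells, SE 0.15, adjusted p at most 0.0294 by edgeR). FBXO genes were called up in 24 (18.5%) and down in 21 (16.2%) of 130 tests. *FBXO2*, whose product recognizes glycoproteins, rose in all 4 lines, most in PC3 cells (1.67, SE 0.21; 1.35 in HCT-116, 1.03 in T47D and 0.63 in A549 cells, adjusted p at most 0.0115), and *FBXO4* fell in all 4 (mean −0.80, adjusted p at most 0.0481), with its A549 call lost without any library but normoxia replicate 3.

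Genes that, like *C4orf3*, *C8orf58* and *KIAA2013*, carry the symbols of uncharacterized genes (CnorfN or KIAA with a number) numbered 706 in the files besides these 3 genes. In 1716 tests, 184 were called up (10.7%) and 359 down (20.9%), with median log2 fold changes of −0.34 in HCT-116 and −0.17 to −0.10 in the other lines. Among the 363 of them tested in all 4 lines, 7 were called up and 13 down in every line. *KIAA1199*, which encodes a protein that binds and degrades hyaluronan, had the largest mean increase (1.95, from 1.09 in PC3 to 2.48 in A549 cells, adjusted p at most 0.0333 by edgeR), and *C12orf29*, which encodes an RNA ligase, the largest mean decrease (−1.45, adjusted p at most 0.00788). Over the 9 family genes named here, 62 of 467 values under the alternatives lost their call and 0 changed sign, and without T47D normoxia replicate 1 the T47D calls of *SLC35A1*, *FBXO2*, *FBXO4*, *ANKRD36*, *ANKRD49*, *ZNF684*, *KIAA1199* and *C12orf29* were lost.

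Genomic neighbours, meaning each gene that overlaps one of the 10 genes in the annotation and the nearest protein-coding gene on each side, numbered 23 in the files. Of 76 tests over the lines, 20 were called up (26.3%) and 6 down (7.89%), against 15.9% and 16.7% of all genes tested. Of the 20 calls up, 12 belonged to *ATG9A*, *PLOD1* and *PDLIM2*, the 3 neighbours called up in all 4 lines. *PLOD1* and *PDLIM2* are on the study's own lists of shared HIF targets. Without them, a count added after the data were seen, 12 of 68 tests were called up (17.6%), near the share of all genes, and 6 down (8.82%).

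*ATG9A*, which encodes a lipid scramblase of autophagy, starts 66 bases from *ANKZF1* on the opposite strand, so the 2 genes are arranged head to head. It rose in A549 (65.3 ± 8.99 to 116 ± 6.96 CPM, log2 fold change 0.83, SE 0.12, adjusted p = 4.91e-04 by edgeR), HCT-116 (1.01, SE 0.19, adjusted p = 8.72e-04), PC3 (0.74, SE 0.10, adjusted p = 0.00174) and T47D cells (0.83, SE 0.20, adjusted p = 0.0182). The T47D call was lost without normoxia replicate 1 or 2. *ANKZF1* had the larger change in A549, HCT-116 and T47D cells, and *ATG9A* in PC3 cells (0.74 against 0.63). *GLB1L*, at the other end of *ANKZF1*, fell in HCT-116 (−0.80, SE 0.30, adjusted p = 0.0424) and PC3 cells (−1.18, SE 0.33, adjusted p = 0.0237). The HCT-116 call of *GLB1L* was lost without any 1 library but normoxia replicate 1, and the PC3 call without hypoxia replicates 1 or 3 or normoxia replicate 1. *STK16* was not called in any line (−0.46 to 0.13), but was called down in HCT-116 cells with a replicate block (adjusted p = 0.0462 by edgeR).

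*PLOD1*, which encodes a collagen lysyl hydroxylase, lies head to head with *KIAA2013* across 7776 bases and had the larger change of the pair in every line, 0.91 (SE 0.11) in A549, 2.19 (SE 0.23) in HCT-116, 0.63 (SE 0.10) in PC3 and 1.88 (SE 0.22) in T47D cells. *PDLIM2*, which encodes a cytoskeletal adaptor with a PDZ and a LIM domain, ends 1573 bases upstream of *C8orf58*. Its log2 fold changes were 1.38 (SE 0.14), 1.15 (SE 0.23), 0.36 (SE 0.10) and 1.07 (SE 0.21) in A549, HCT-116, PC3 and T47D cells. As study targets, their calls are not independent evidence. *KIAA1967*, on the other side of *C8orf58*, was called up in HCT-116 cells (0.67, SE 0.23, adjusted p = 0.0253 by edgeR).

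Of the other head-to-head neighbours, 1 was called, in 1 line. *LRP2BP*, which starts 97 bases from the GENCODE start of *ANKRD37*, was not called in any line (−0.20 to 0.67). Nor was *C17orf62*, which starts much farther away, 7351 bases from *NARF* (−0.11 to 0.23). *SZRD1*, 95 bases from *FBXO42*, rose in HCT-116 cells alone among the 4 lines tested (0.55, SE 0.19, adjusted p = 0.0304 by edgeR), a call lost without any of the 3 hypoxic libraries or normoxia replicate 3. No difference between a gene and its neighbour was tested, since the hypoxic change of each gene entered the choice of the genes.

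**Figure D4:**
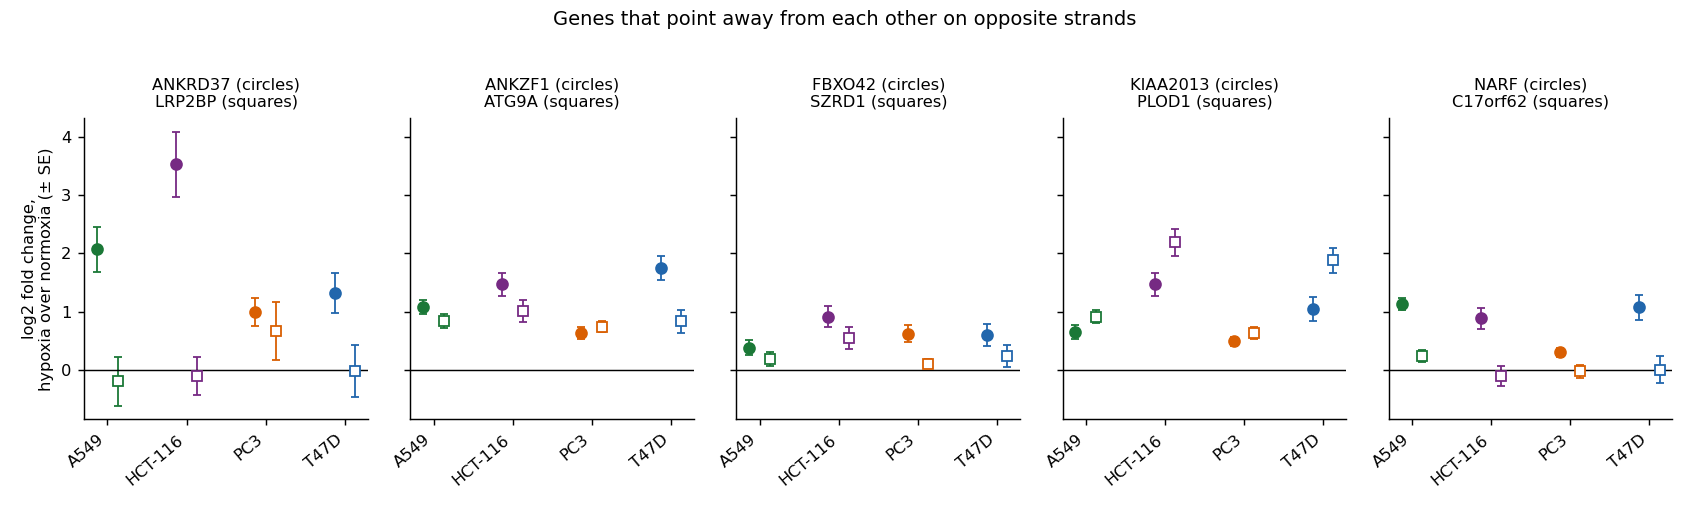
log2 fold change (hypoxia over normoxia, y axis) in each line (x axis) of 5 of the genes (filled circles) and of the head-to-head neighbour of each on the opposite strand (open squares), 1 panel per pair, with bars for the standard error. The starts of a pair lie 66 to 7777 bases apart. *PLOD1* lies above *KIAA2013* in all 4 lines and *ATG9A* above *ANKZF1* in PC3 cells, and *LRP2BP* lies between −0.20 and −0.02 in A549, HCT-116 and T47D cells and at 0.67 (SE 0.50) in PC3 cells.

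Among the remaining neighbours, *FOXK2*, downstream of *NARF*, rose in HCT-116 (0.79, SE 0.22, adjusted p = 0.00871 by edgeR) and PC3 cells (0.38, SE 0.10, adjusted p = 0.0193). *CHERP* and *MED26*, on either side of *SLC35E1*, rose in HCT-116 cells (0.96 and 0.66, adjusted p = 0.00708 and 0.0208). *C4orf47* was called up in T47D cells (1.82, SE 0.49, adjusted p = 0.0294) from 10 to 76 counts per library. *NPPB* was called up in A549 cells (adjusted p = 3.27e-04 by edgeR) from 1 to 32 counts per library, and had 0 counts in the other lines. *C3orf38* fell in A549 (−0.38, adjusted p = 0.0274) and HCT-116 cells (−1.48, adjusted p = 1.95e-04), and *PHTF1* in HCT-116 (−0.69, adjusted p = 0.0264) and T47D cells (−0.87, adjusted p = 0.0353). Without hypoxia or normoxia replicates 1 or 2 of the line, the calls of *C4orf47* and *PHTF1* in T47D cells and of *C3orf38* in A549 cells were each lost. The HCT-116 call of *PHTF1* was lost without hypoxia replicates 1 or 2 or normoxia replicates 2 or 3, and the PC3 call of *FOXK2* without any library but normoxia replicates 2 and 3. The call of *KIAA1967* was lost without hypoxia replicate 1, and that of *MED26* without hypoxia replicate 3. *USP53* and *RSG1* were not called in any line, though a replicate block brought *RSG1* past the threshold in HCT-116 cells (adjusted p = 0.0474 by edgeR), and *FABP2*, *HTR1F* and *PTPN22* were not tested in any.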

How the data were processed

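RNA-seq libraries of A549, HCT-116, PC3 and T47D cells in normoxia and hypoxia (3 replicates each, 24 in all) were grouped by the sample labels. The authors deposited raw read counts per gene symbol (23106 symbols). Per the submitters' processing notes, the tools were Trim Galore 0.3.3, HISAT2 2.05, Picard 2.0.1 and HTSeq 0.5.4p3, with GRCh37. The counting mode was intersection-strict, which drops reads that reach past an exon or lie in 2 genes, and its strand setting is not given in the sources used here.

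The 10 genes, the partner lists and the tests were chosen with earlier results of these data known. Counts were fitted per line with edgeR 4.0.16 (R 4.3.3, limma 3.58.1; filterByExpr, TMM, quasi-likelihood test, Benjamini-Hochberg adjustment over all genes tested). Calls needed a fold change above 1.2 and an adjusted p below 0.05. Levels between lines were tested in the 12 libraries of each state (adjusted p under 0.05). The scripts were tested on simulated data. Replicates correlated closely, with 22698584 to 62850747 counts per library, and floors of 3 counts cover counting error only. CPM values are the deposited counts scaled to library size with TMM factors over all libraries, and likeness was Pearson's r of log2 CPM (prior count 2) after subtracting each line's mean.

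Genes named were the 10 genes, their neighbours, partners called in the same direction in at least 3 lines, the closest relatives, the 2 family members with the largest mean change of those with a call in every line, and the 2 most similar genes. Gene positions came from GENCODE 44 lifted to GRCh37. Replicate numbers are shared between states in the labels. Deviations of same-numbered libraries correlated above 0.1 for all 3 pairs in T47D cells alone (r = 0.115, 0.249 and 0.257). The numbers were taken to pair the libraries there and not in the other lines. The r values were also positive in A549 (0.153, 0.072 and 0.059), HCT-116 (0.235, 0.184 and 0.055) and PC3 cells (0.052, 0.045 and 0.064). This cut therefore does not show that the other lines are unpaired. Main calls in every line, T47D included, came from the fit without a block. With the block, 10 of the 10 genes were called up in T47D cells. Alternatives were RLE factors or library totals, no filter or a mean count of 50, DESeq2 1.42.0, a replicate block, 1 fit of all libraries, thresholds of 1.5 or 0.01, and leaving out each library. Some marker and partner genes are not reported here.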

Additional observations from a re-analysis of the deposited data

Results flagged for a closer look

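Listed here are 4 genes around those described for which every hypoxic library lay above the normoxic ones in 1 line and below in another. In each case the difference between lines was not tested. Such separation was common among all genes tested. Hypoxic libraries lay above in 23.6%, 32.8%, 28.4% and 19.0% of genes in A549, HCT-116, PC3 and T47D cells. They lay below in 24.3%, 27.6%, 22.2% and 13.3%. How many of all genes went opposite ways between lines was not counted, so nothing is read from the choice. *GLB1L*, which overlaps the end of *ANKZF1*, had log2 fold changes of −0.44 in A549, −0.80 in HCT-116 and −1.18 in PC3 cells, and 0.22 in T47D cells. It was called down in HCT-116 and PC3 cells, and not called in A549 (adjusted p = 0.0826 by edgeR) or T47D cells (0.545). *PHTF1*, the neighbour of *RSBN1*, had log2 fold changes of 0.08 in PC3 (adjusted p = 0.574 by edgeR) and −0.87 in T47D cells (0.0353, called down). *NARFL*, the closest relative of *NARF*, had log2 fold changes of −0.29 in A549 (adjusted p = 0.0580 by edgeR) and 0.08 in PC3 cells (0.527), neither called. *SETD8*, which encodes a methyltransferase of histone H4 lysine 20, had log2 fold changes of −0.38 in A549 (adjusted p = 0.0205 by edgeR, called down) and 0.31 in HCT-116 cells (0.183).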

How the results depend on the processing

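Of 520 single values of the 10 genes under the alternatives, 485 kept their side of the threshold, 31 lost their call, 4 gained one and 0 changed sign. At a fold change over 1.5, 6 of the 10 genes were called up in PC3 cells, partners gave 14 calls up and 11 down, and SLC35, FBXO and ANKRD genes 4, 14 and 9 up. At an adjusted p under 0.01, 6 of the 10 genes were called up in PC3 and 4 in T47D cells, partners gave 15 calls up and 12 down, neighbours 13 up and 1 down, SLC35 genes 3 up and 10 down, FBXO genes 12 up and 8 down, ANKRD genes 6 up and 15 down, ZNF genes 71 up and 196 down, and genes with uncharacterized symbols 97 up and 182 down. The share of all genes called at these stricter thresholds is not given here, so nothing about these genes is read from the lower counts. Leaving out 1 library gave 9 to 10 of the 10 genes called up in A549, 10 in HCT-116, 7 to 10 in PC3 and 4 to 10 in T47D cells, the 4 without normoxia replicate 1 or 2. It also gave 20 to 28 partner calls up and 15 to 27 down, 17 to 22 neighbour calls up and 4 to 7 down, and 5 to 9 SLC35 calls up, the 5 without A549 hypoxia replicate 2. Without *PLOD1* and *PDLIM2*, neighbours gave 12 calls up against 20.

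With the replicate block, all T47D genes gave 1281 calls up and 1485 down against 922 and 942, and 180 up and 19 down without normoxia replicate 1. In the lines whose numbers were not taken as pairs, the block gave 2507 calls up against 2452 in A549, 3653 against 3170 in HCT-116 and 2349 against 2237 in PC3 cells. One fit of all libraries gave 1427 calls up and 1182 down in A549 (2452 and 2476 in the fit per line), 867 and 425 in PC3 (2237 and 2109) and 2231 and 1599 in T47D cells. With library totals alone, all genes had a median log2 fold change of −0.13 in A549 and −0.12 in T47D cells, and the share of calls that were up was 33.9% and 32.1% against 49.8% and 49.5%. The cause of these differences was not tested. For *ANKRD37* in normoxia, the test between lines was lost without HCT-116 normoxia replicate 3 (adjusted p = 0.0560 by edgeR). Depth limits *ANKRD37* most, with 22 counts in the lowest library.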
